A study of Mus musculus with 44 samples.

Results

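Serinc1, Fbxw4, Gm17018, Lmo1 and Ptov1 are the 5 genes, besides Dppa4, that the study names as changed in every class of embryo without maternal Dppa2 and Dppa4. They were taken by name from the single-embryo RNA-seq table of 35269 genes, of which 16412 were abundant enough to be tested, all 5 among them. The comparison of each group with wild-type embryos chose these genes, so that comparison is described here and carries no test. The tests concern comparisons that the choice did not use. These are differences between litters of the same cross, between littermates of different genotype and between the groups that all lacked maternal Dppa2/4. Each of these groups was required to differ from the same controls, so differences between them are not independent of the choice.

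The data comprise 44 two-cell embryos from natural matings of C57Bl/6 mice, each sequenced as its own library, in 6 litters from 3 crosses. The controls were 14 Dppa2/4+/+ embryos of Dppa2/4+/+ females and males, in litters of 10 and 4. Females carrying a floxed double allele, which spans Dppa4 exon 2 to Dppa2 exon 7, deleted both genes through Zp3-Cre, a transgene active in growing oocytes, and the embryos of these maternal-null females received no intact maternal allele. Mated with Dppa2/4+/+ males they gave 15 Dppa2/4+/- embryos, in litters of 7 and 8, called wild-type-sired here. Mated with Dppa2/4+/- males they gave 5 Dppa2/4+/- embryos (4 and 1 from the 2 litters), called heterozygous-sired, and 10 Dppa2/4-/- embryos (3 and 7). The genotypes of these last 15 embryos had been assigned by the authors from their Dppa2 and Dppa4 transcripts. Each cross has 2 litters, so a comparison between crosses rests on 2 litters a side, and litter numbers carry no order.

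Dppa2 and Dppa4 are small nuclear proteins of the early embryo and of pluripotent cells that bind chromatin, and in embryonic stem cells they activate genes of the two-cell stage. At that stage the mouse embryo degrades transcripts stored in the egg while its own genome becomes active, so that the level of a transcript reflects both storage and new synthesis. The 5 genes have no common pathway. Serinc1 encodes a membrane protein of the serine incorporator family, which has been linked to serine-derived membrane lipids. Fbxw4 encodes an F-box protein with WD repeats, the kind of subunit that brings substrates to SCF ubiquitin ligases. Lmo1 encodes a LIM-only protein, a scaffold that binds no DNA itself and joins transcription factors through LDB1. Ptov1 encodes a protein whose repeated domain resembles part of the Mediator subunit MED25. Gm17018 is a predicted gene that overlaps the end of Fbxw4 on the opposite strand.

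In GRCm38, Serinc1 lies at chr10:57515774-57532530 on the reverse strand and Ptov1 at chr7:44863067-44869788 on the reverse strand. Lmo1 lies at chr7:109138572-109175207 on the reverse strand, Fbxw4 at chr19:45578254-45660312 on the reverse strand and Gm17018 at chr19:45560615-45579763 on the forward strand. All 5 are annotated as protein-coding by GENCODE, at the same coordinates as in the deposited table. The spans of Fbxw4 and Gm17018 share 1510 bases, and their exons share 676 bases, which is 21.4% of the exonic bases of Fbxw4 and 28.8% of those of Gm17018. Reads were counted without regard to strand, so a read inside the shared bases counts for both genes. Part of this shared stretch codes for Fbxw4. It is the piece of Fbxw4 exon 7 (of 9) at chr19:45579670-45579763, shown here on the reverse strand as it is read in the Fbxw4 messenger RNA because it is the coding sequence that cannot be assigned to one gene.

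Fbxw4 exon 7, shared: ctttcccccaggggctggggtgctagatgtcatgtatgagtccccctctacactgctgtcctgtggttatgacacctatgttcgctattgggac

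The promoter of Lmo1 was taken from RefSeq (GRCm38.p6), which gives 2 starts for the gene. The 250 bases before the start that matches the gene span given above, chr7:109175208-109175457 on the reverse strand, are shown with each CG dinucleotide in capitals, since Lmo1 had the smallest adjusted p of the 5 genes in the litter comparison below.

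Lmo1 promoter: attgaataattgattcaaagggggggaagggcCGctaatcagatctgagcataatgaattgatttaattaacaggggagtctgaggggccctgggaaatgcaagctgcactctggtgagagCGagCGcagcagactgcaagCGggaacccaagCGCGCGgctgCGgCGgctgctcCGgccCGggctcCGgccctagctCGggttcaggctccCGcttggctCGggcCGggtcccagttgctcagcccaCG

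This stretch holds 17 CG dinucleotides and is 61.2% G or C. Over the 32851 promoters of the same table the medians are 6 CG dinucleotides and 52.4% G or C, and 23.5% of the promoters hold at least as many CG dinucleotides as Lmo1. The letters GGGCGG, searched on both strands, occur in 32.7% of the promoters and not in this window.

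Depth, worked out from the value that stands for 0 reads, ranged from 247667 to 3163026 total reads per embryo. It was highest in Dppa2/4+/+ embryos (median 1770010) and lowest in the wild-type-sired Dppa2/4+/- embryos (median 528166). Levels are log2 RPM, where RPM is a gene's reads per 1000000 total reads of the embryo, and values under 1.86, the highest value that stands for 0 reads in any embryo, were set to 1.86 so that depth did not set the lower end. Dppa2 was below 4.2 RPM in all 10 Dppa2/4-/- embryos and at 204 RPM or more in all Dppa2/4+/+ embryos. The summed level of 10 two-cell markers had a median of 470 RPM in Dppa2/4+/+ embryos (range 209 to 875) and of 978 (345 to 1842), 728 (328 to 1353) and 719 RPM (400 to 1027) in wild-type-sired Dppa2/4+/-, heterozygous-sired Dppa2/4+/- and Dppa2/4-/- embryos. The mean of their log2 levels was 4.06 in Dppa2/4+/+ embryos and 4.91, 4.94 and 4.12 in these groups, so it was nearly level in Dppa2/4-/- embryos. The summed level of 6 oocyte markers had a median of 818 RPM (240 to 2770) in Dppa2/4+/+ embryos and of 1192 (414 to 2733), 1701 (343 to 2297) and 797 RPM (396 to 1888) in the others. The mean over these oocyte markers of their log2 levels was 5.25 against 6.02, 5.82 and 5.90. The part of these shifts in the group differences was not tested. Markers of cumulus cells summed to at most 17.7 RPM in any embryo and those of sperm to at most 0.706 RPM.

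Lmo1, Fbxw4, Gm17018 and Ptov1 were higher and Serinc1 was lower in the embryos of maternal-null mothers than in Dppa2/4+/+ embryos. In Dppa2/4+/+ embryos, ranked by median RPM per kilobase of exon, Lmo1 (19.8) and Serinc1 (17.01) stood first, followed by Fbxw4 (7.83), Gm17018 (6.62) and Ptov1 (0.733). In the wild-type-sired Dppa2/4+/- embryos the order was Lmo1 (109), Fbxw4 (34.8), Gm17018 (30.9), Ptov1 (7.89) and Serinc1 (5.67). In the heterozygous-sired Dppa2/4+/- embryos it was Lmo1 (76.0), Fbxw4 (26.2), Gm17018 (23.1), Ptov1 (4.78) and Serinc1 (2.99). In Dppa2/4-/- embryos Lmo1 (66.7) was followed by Gm17018 (18.5), Fbxw4 (17.6), Serinc1 (8.74) and Ptov1 (3.27). Serinc1 thus stood last in both groups of Dppa2/4+/- embryos, and above Ptov1 in Dppa2/4-/- embryos. Among all genes tested, the mean was higher by at least 1 on the log2 scale in 4.83%, 3.76% and 5.49% of genes, and lower by at least 1 in 2.55%, 3.75% and 0.713%, in wild-type-sired Dppa2/4+/- embryos, heterozygous-sired Dppa2/4+/- embryos and Dppa2/4-/- embryos. All 5 genes passed this size in all 3 groups, which the choice of the genes fixed.

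**Figure D1:**
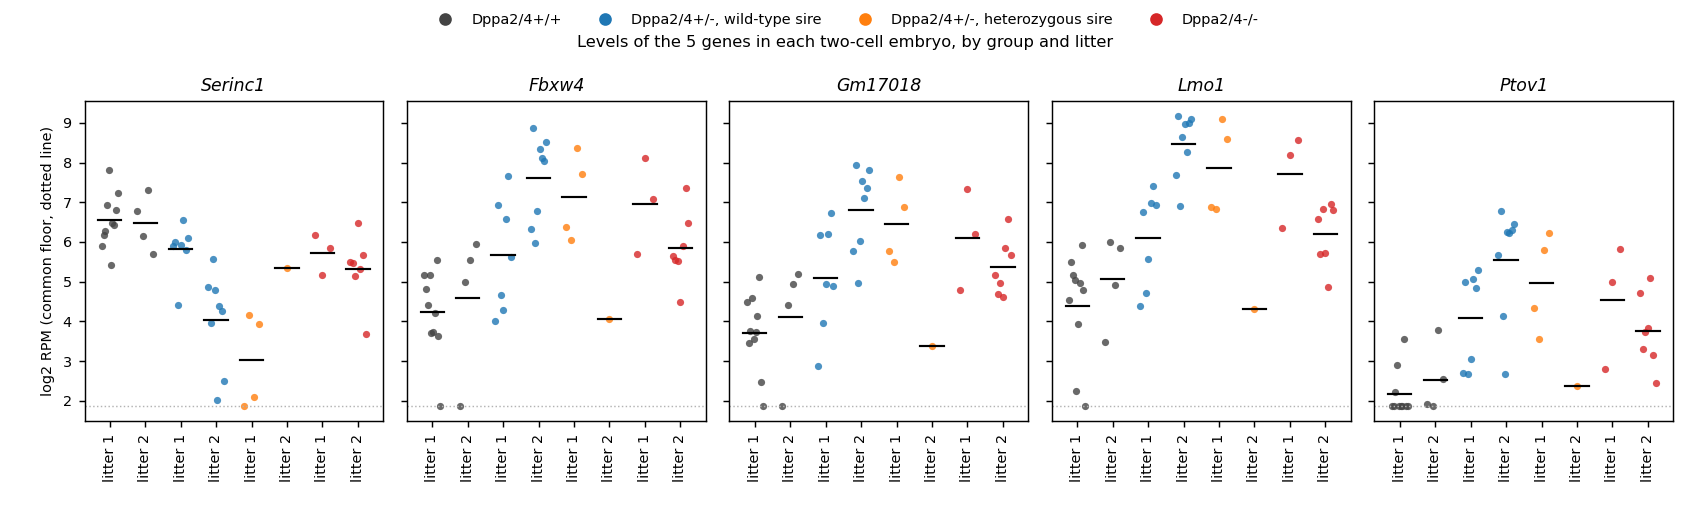
Level of each gene (log2 RPM with a common floor, dotted line at 1.86) in each of 44 two-cell embryos, by litter and coloured by genotype group, where a point is an embryo and a bar the mean of a litter's embryos in that group. Serinc1 is lowest in litter 2 of the wild-type sires and in the 4 Dppa2/4+/- embryos of litter 1 of the heterozygous sires, where Lmo1 is high, and the 1 Dppa2/4+/- embryo of litter 2 of the heterozygous sires lies near the Dppa2/4+/+ embryos in the 5 panels.

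Lmo1 had the highest level per kilobase of exon of the 5 genes in Dppa2/4+/+ embryos and in wild-type-sired Dppa2/4+/- embryos. Its level in Dppa2/4+/+ embryos ran from the floor to 5.99, with a median of 4.94. It ran from 4.39 to 9.17 (median 7.40) in the wild-type-sired Dppa2/4+/- embryos, and 12 of these 15 embryos were above the highest Dppa2/4+/+ embryo. The 5 heterozygous-sired Dppa2/4+/- embryos had levels of 6.88, 6.84, 9.10, 8.60 and 4.30, and 4 of them were above that embryo. In Dppa2/4-/- embryos Lmo1 ran from 4.87 to 8.57 (median 6.69), with 7 of 10 embryos above it. The group means exceeded that of Dppa2/4+/+ embryos (4.59 ± 1.29, SD, n = 14) by 2.78, 2.56 and 2.07 on the log2 scale, or 6.85-fold, 5.88-fold and 4.20-fold.

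Serinc1 was the gene that was lower. Its level in Dppa2/4+/+ embryos lay between 5.43 and 7.80, with a mean of 6.53 ± 0.659 (SD, n = 14). In the wild-type-sired Dppa2/4+/- embryos it ran from 2.01 to 6.54 (median 4.87), and 8 of 15 were below the lowest Dppa2/4+/+ embryo. The 5 heterozygous-sired Dppa2/4+/- embryos had levels of 1.86, 4.17, 2.103, 3.95 and 5.34, all below it, as was true of 0.0487% of all genes. The first of these values is the floor, where 1 read of Serinc1 was counted, so that the fold of this group is understated. In Dppa2/4-/- embryos it ran from 3.68 to 6.48 (median 5.49), and 4 of 10 were below the lowest Dppa2/4+/+ embryo. The group means were 3.15-fold, 8.24-fold (11.4-fold without the fifth embryo) and 2.11-fold below that of Dppa2/4+/+ embryos.

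Fbxw4 and Gm17018 moved as a pair. Fbxw4 had a mean of 4.33 ± 1.27 (SD, n = 14) in Dppa2/4+/+ embryos, and its mean was 5.23-fold, 4.54-fold and 3.62-fold higher in the 3 groups in the same order. Gm17018 had a mean of 3.83 ± 1.11 (SD, n = 14), and its mean was 4.57-fold, 4.02-fold and 3.38-fold higher. The highest Dppa2/4+/+ embryo was exceeded by 11 of 15, 4 of 5 and 4 of 10 embryos for Fbxw4, and by 10 of 15, 4 of 5 and 5 of 10 embryos for Gm17018. In the 37 embryos with at least 20 reads of Fbxw4, the number of Gm17018 reads divided by that of Fbxw4 had a median of 0.610 and ran from 0.450 to 0.959. The median of this ratio was 0.667 in Dppa2/4+/+ embryos (9 embryos) and 0.596, 0.621 and 0.574 in the other groups (14, 5 and 9 embryos). How many of these reads fall in the shared exons cannot be read from counts per gene, and the values of both genes are therefore uncertain as separate measurements.

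Ptov1 was near the limit of detection in Dppa2/4+/+ embryos and was read in every other embryo. Among Dppa2/4+/+ embryos, 8 of 14 stood at the floor, 3 of them with 0 reads, and the highest level was 3.78. The level ran from 2.67 to 6.78 (median 5.06) in the wild-type-sired Dppa2/4+/- embryos. It was 4.33, 3.55, 5.80, 6.22 and 2.38 in the heterozygous-sired Dppa2/4+/- embryos, and ran from 2.45 to 5.82 (median 3.79) in Dppa2/4-/- embryos. Above the highest Dppa2/4+/+ embryo were 11 of 15, 3 of 5 and 5 of 10 embryos. Because the control mean rests on the floor, the differences of 2.60, 2.18 and 1.72 on the log2 scale understate the change.

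Some embryos stood apart in most of these genes. Dppa2/4+/+ embryo 10 had 1367153 total reads and 205 reads of Serinc1, but 0 reads of Fbxw4, Gm17018, Lmo1 and Ptov1, which allows at most 2.19 RPM of each and covers counting error only. It had 9403 genes with reads. Dppa2/4+/+ embryo 11 had 9169 genes with reads and 1 read each of Fbxw4 and Gm17018. The median of Dppa2/4+/+ embryos was 12247 genes, and the part of this in the low levels was not tested. Without both embryos the means in the 3 groups were 3.93-fold, 3.41-fold and 2.72-fold higher for Fbxw4 and 5.49-fold, 4.71-fold and 3.36-fold higher for Lmo1. The fifth heterozygous-sired Dppa2/4+/- embryo was the only one of its genotype in its litter. Its Fbxw4, Gm17018, Lmo1 and Ptov1 levels of 4.07, 3.38, 4.30 and 2.38 and its Serinc1 level of 5.34 differ from those of the other 4 embryos of its group, and all but Serinc1 lie within the range of the Dppa2/4+/+ embryos. Its Dppa2 level of 472 RPM was also within that range (204 to 678 RPM), while its Dppa4 level of 54.5 RPM was below it (80.2 to 356 RPM). Without it the mean of the heterozygous-sired Dppa2/4+/- embryos was 6.92-fold above that of Dppa2/4+/+ embryos for Fbxw4, 6.15-fold for Gm17018, 9.63-fold for Lmo1 and 6.51-fold for Ptov1.

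The 5 genes varied among embryos of the same genotype and cross, and the 2 litters of maternal-null females and Dppa2/4+/+ males differed. Lmo1 ran from 4.39 to 7.40 (median 6.76) in the 7 embryos of litter 1 and from 6.92 to 9.17 (median 8.80) in the 8 embryos of litter 2, and the ranges overlapped through few embryos. The mean difference was 2.36 ± 0.567 (SE; adjusted p = 0.00318, limma, here and below), with a 95% interval of 1.22 to 3.51. Serinc1 went the other way. It ran from 4.40 to 6.54 in litter 1 and from 2.01 to 5.57 in litter 2, and was lower in litter 2 by a mean difference of -1.77 ± 0.473 (SE; adjusted p = 0.00782).

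Fbxw4 and Gm17018 were also higher in litter 2 of this cross. Fbxw4 ran from 4.02 to 7.67 (median 5.62) in litter 1 and from 5.97 to 8.86 (median 8.08) in litter 2, a difference of 1.94 ± 0.614 (SE; adjusted p = 0.0245). Gm17018 ran from 2.86 to 6.72 and from 4.96 to 7.94, a difference of 1.71 ± 0.575 (SE; adjusted p = 0.0346). Ptov1 differed by 1.47 ± 0.568 (SE) in the same direction and did not pass the threshold (adjusted p = 0.0703). Thus 4 of the 5 genes passed, where 16.7% of all genes tested did. Fbxw4 and Gm17018 share exonic bases, so their calls are not independent. In litter 2, 3 of the 5 were higher and 1 was lower by this test, against 5.01% and 11.7% of all genes. These litters differed broadly, and the genes were not chosen on this difference, but each was chosen for a difference between these same embryos and the controls.

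Other values moved with this difference. Dppa2 was at 7.30 ± 0.867 in litter 1 and 5.74 ± 0.362 (SD, n = 7 and 8) in litter 2 (adjusted p = 0.00144), and Dppa4 at 6.46 ± 0.631 and 4.67 ± 0.879 (adjusted p = 6.58e-05). The summed level of 6 oocyte markers (Zp3, Gdf9, Bmp15, Oosp1, Mos and Npm2) lay between 414 and 1192 RPM in litter 1 and between 1100 and 2733 RPM in litter 2. The summed level of 10 two-cell markers lay between 345 and 978 RPM and between 615 and 1842 RPM. Their part in the result was not tested. The median depth was 663861 and 524828 reads.

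The calls differ in how firmly they stand. Lmo1 passed in each of the 6 alternative settings (adjusted p between 1.16e-05 and 0.00667) and without each of the 15 embryos in turn. With voom on recovered reads, the other 3 calls were lost, at adjusted p = 0.169 for Serinc1, 0.0732 for Fbxw4 and 0.0966 for Gm17018. Serinc1 passed without each embryo. Fbxw4 missed the threshold without embryo 1, 3, 4 or 9 of this group (adjusted p between 0.0522 and 0.0682). Gm17018 missed it without embryo 1, 3, 4, 7, 9, 12, 14 or 15 (0.0546 to 0.111), and Ptov1 passed without embryo 7, 10 or 11 (0.0125 to 0.048). Centring each embryo on its median moved the median difference of all genes from -0.06 to 0.30 and the share of calls that were higher from 30.0% to 62.5%, and there Ptov1 passed too (1.83, adjusted p = 0.0077).

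**Figure D2:**
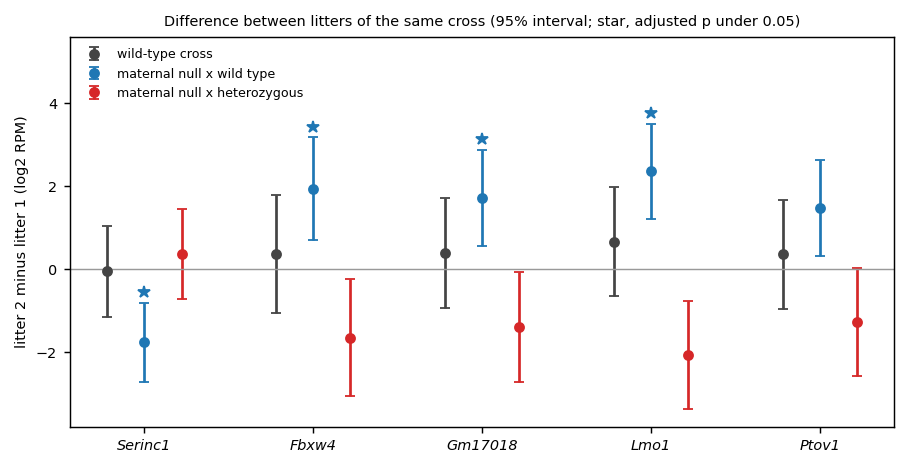
Difference between litter 2 and litter 1 of each cross for each gene (log2 RPM; points, limma estimate; bars, 95% interval; stars, adjusted p under 0.05). In the cross of maternal-null females with wild-type males Serinc1 lies at -1.77 and Lmo1 at 2.36, and no gene is starred in the other crosses.

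In the cross of maternal-null females with Dppa2/4+/- males none of the 5 genes passed the threshold between litters in the limma fit or with voom, and 3 had an unadjusted p under 0.05, as had 20.3% of all genes. With genotype in the model, the difference of litter 2 from litter 1 was -2.07 ± 0.643 (SE) for Lmo1 (adjusted p = 0.0513), -1.65 ± 0.697 for Fbxw4 (0.161), -1.39 ± 0.652 for Gm17018 (0.215) and -1.28 ± 0.645 for Ptov1 (0.256). Of all genes tested 4.94% passed. Serinc1 differed by 0.35 ± 0.537 (SE; adjusted p = 0.823). The Lmo1 difference passed in 3 of 6 alternative settings, with log2(RPM + 1), with centred embryos and with sample weights (adjusted p between 0.007 and 0.0481), and Fbxw4 passed with centred embryos (0.0468). Without the first Dppa2/4-/- embryo the Lmo1 difference was -2.65 (adjusted p = 0.0197), and without the second Dppa2/4+/- embryo -2.13 (0.0481). Without the fifth Dppa2/4+/- embryo it was -1.50 (adjusted p = 0.305), and the differences were -1.12 for Fbxw4, -0.75 for Gm17018, -0.78 for Ptov1 and -0.40 for Serinc1. Summed oocyte markers lay between 1102 and 2297 RPM in litter 1 and between 343 and 981 RPM in litter 2 of this cross. Summed two-cell markers lay between 503 and 1353 RPM and between 328 and 824 RPM, and the mean of their log2 levels was 5.28 and 3.62. The part of these markers in the result was not tested.

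Between the litters of Dppa2/4+/+ parents none of the 5 genes differed beyond the threshold, where 2.57% of all genes did. None had an unadjusted p under 0.05 (14.8% of all genes) or passed with voom, which called 869 genes. The differences were -0.06 for Serinc1, 0.36 for Fbxw4, 0.39 for Gm17018, 0.66 for Lmo1 and 0.36 for Ptov1, and their adjusted p-values lay between 0.786 and 1. The interval for Lmo1 ran from -0.65 to 1.97. Whether litter differences varied between crosses was not tested.

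Littermates of Dppa2/4+/- sires differ in the embryo's own genotype while sharing the mother. Serinc1 was higher in Dppa2/4-/- embryos than in their Dppa2/4+/- littermates by 1.78 ± 0.568 (SE) on the log2 scale, with a 95% interval of 0.64 to 2.93. Its unadjusted p of 0.00319 ranked 72nd among the 16412 genes tested and did not pass after adjustment (adjusted p = 0.718). In litter 1 the Dppa2/4+/- embryos had 0.468, 18.0, 4.30 and 15.4 RPM of Serinc1, and the Dppa2/4-/- embryos had 72.2, 35.6 and 57.3 RPM. The genotypes did not overlap in this litter, which held in the same direction for 1.29% of all genes.

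In litter 2 the single Dppa2/4+/- embryo had 40.6 RPM of Serinc1 and the 7 Dppa2/4-/- embryos ran from 12.8 to 89.4 RPM (median 44.6), so that it fell in the middle of them. Fitted within each litter, the Serinc1 difference was 2.70 ± 0.660 (SE; adjusted p = 0.164) in litter 1 and -0.01 ± 0.924 in litter 2. The difference between litters was -2.72 ± 1.14 (SE; unadjusted p = 0.0217, adjusted p = 1). This fit was added after the values were seen, and its second litter rests on the 1 Dppa2/4+/- embryo that stood apart, which is assumed to vary like the embryos of the other groups.

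**Figure D3:**
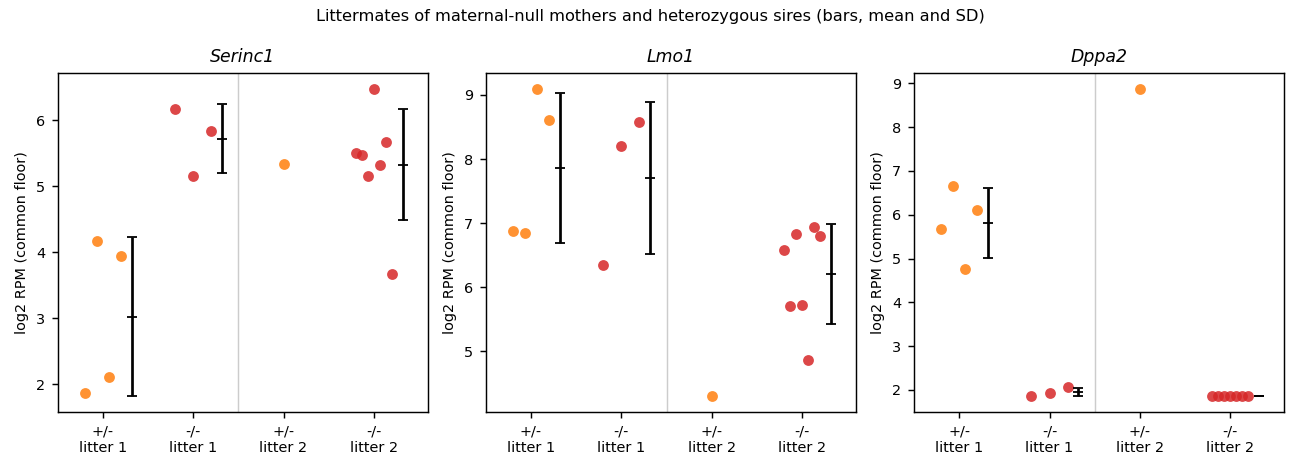
Levels of Serinc1, Lmo1 and Dppa2 (log2 RPM with a common floor) in Dppa2/4+/- (orange) and Dppa2/4-/- (red) littermates of Dppa2/4+/- sires, by litter, where points are embryos and bars the mean and SD. Serinc1 separates the genotypes in litter 1, at 1.86 to 4.17 against 5.16 to 6.17, while Lmo1 overlaps there, and the single Dppa2/4+/- embryo of litter 2 has the highest Dppa2 level and the lowest Lmo1 level.

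The other 4 genes gave small differences between these littermates with wide intervals. The difference between Dppa2/4-/- and Dppa2/4+/- embryos was 0.50 for Fbxw4 (95% interval -0.99 to 1.99), 0.45 for Gm17018 (-0.95 to 1.84), 0.55 for Lmo1 (-0.83 to 1.92) and 0.17 for Ptov1 (-1.21 to 1.55), all with an adjusted p of 1. Of all genes tested 0.0183% passed, which were 3 genes with Dppa2 and Dppa4 among them. The genotypes had been assigned from the transcripts of Dppa2 and Dppa4, so the calls of these genes were fixed in advance. Without the fifth Dppa2/4+/- embryo the differences of Fbxw4, Gm17018, Lmo1 and Ptov1 turned to -0.15, -0.33, -0.15 and -0.44. In litter 1, Lmo1 was at 118, 115, 548 and 389 RPM in the Dppa2/4+/- embryos and at 81.6, 294 and 381 RPM in the Dppa2/4-/- embryos, and the genotypes overlapped.

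Between crosses, the Dppa2/4+/- embryos of the 2 kinds of sire have the same genotype and the same kind of mother. Serinc1 was lower in the heterozygous-sired Dppa2/4+/- embryos by a difference of -1.38 ± 0.533 (SE; unadjusted p = 0.0129, adjusted p = 0.969), and the other 4 genes differed by between -0.41 and -0.18 (adjusted p = 1 each). Of all genes 0.0122% passed. Without litter 2 of the Dppa2/4+/+ sires the Serinc1 difference was -2.33 and passed (adjusted p = 0.0343), and without litter 1 of the Dppa2/4+/- sires, which leaves 1 embryo, it was 0.47. Without the fifth Dppa2/4+/- embryo the Serinc1 difference was -1.85 (adjusted p = 0.434) and those of the 4 other genes turned to between 0.10 and 0.49.

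Dppa2/4-/- embryos were compared with the wild-type-sired Dppa2/4+/- embryos in the same way. None of the 5 genes passed in the limma fit, where 0.0244% of all genes did. None had an unadjusted p under 0.05 (11.3% of all genes) or passed with voom. The genes were chosen because both groups differed from the same controls, so this absence is not independent of the choice. Ptov1 had the smallest p, with a difference of -0.88 (95% interval -1.87 to 0.11, adjusted p = 0.49). The result turned on the litter. Without litter 1 of the Dppa2/4+/+ sires, Serinc1 was higher in Dppa2/4-/- embryos by 1.40 (adjusted p = 0.0319), while the differences were -1.81 for Lmo1 (0.0343) and -1.57 for Ptov1 (0.0451), and 2078 genes were called in place of 4. Without litter 2 of those sires none of the 5 passed and only 2 genes were called.

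Across the 44 embryos Fbxw4, Gm17018, Lmo1 and Ptov1 rose and fell together. Pearson's r of their levels was 0.98 for Fbxw4 and Gm17018 (which share exonic bases), 0.92 for Fbxw4 and Lmo1, 0.82 for Fbxw4 and Ptov1 and 0.81 for Lmo1 and Ptov1. Serinc1 had an r between -0.68 and -0.57 with the 4 genes. The genes were chosen for opposite or like differences between these embryos, so the values were also centred on each litter and genotype, which left an r of 0.95, 0.81, 0.58 and 0.48 for the first 4 pairs and between -0.34 and -0.05 for Serinc1. The embryos share group, litter and depth, and these correlations are descriptions. The 4 genes had an r between -0.50 and -0.40 with the log2 of total reads, which became -0.38 to -0.17 after centring. With the mean level of the 6 oocyte markers, r was between 0.80 and 0.89 for the 4 genes and between 0.63 and 0.78 after centring, and it was -0.59 and -0.35 for Serinc1. With that of the 10 two-cell markers, r was between 0.62 and 0.78 for the 4 genes and between 0.32 and 0.64 after centring. For Serinc1 it was -0.64 and -0.42.

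**Figure D4:**
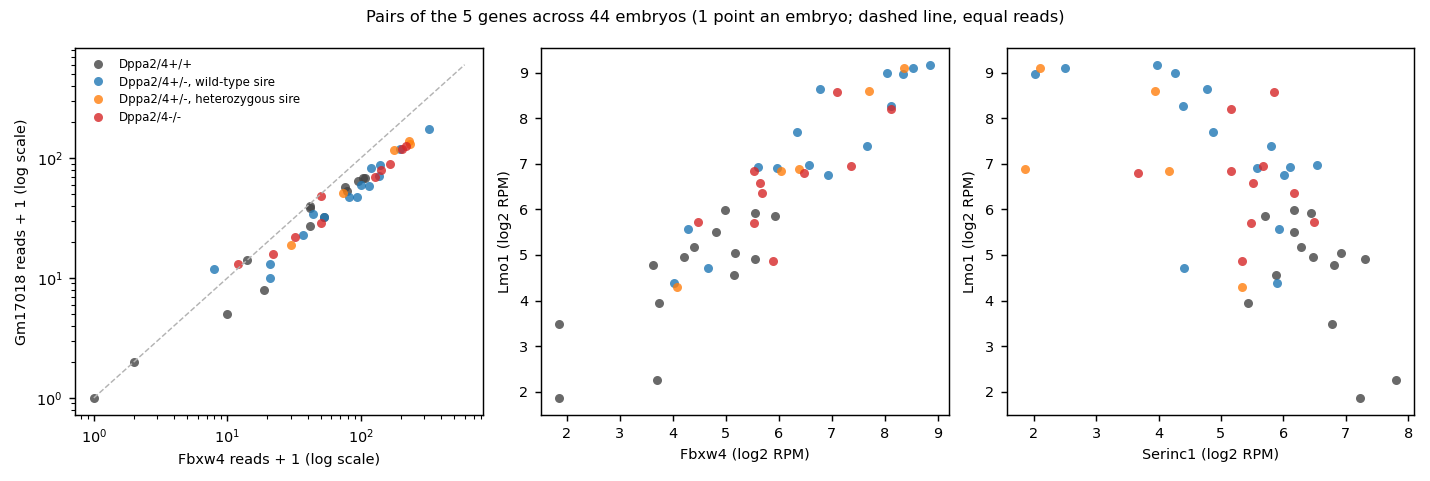
Reads of Gm17018 against Fbxw4 (both plus 1, log axes, dashed line of equal reads), and levels of Lmo1 against Fbxw4 and against Serinc1 (log2 RPM), where each point is an embryo and colours are genotype groups. The first pair forms a narrow band, which lies below the line of equal reads in the 37 embryos with at least 20 reads of Fbxw4, Lmo1 rises with Fbxw4 (r = 0.92), and Lmo1 is high where Serinc1 is low (r = -0.68).

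Apart from the 5 genes themselves, the genes whose levels most resembled each member were sought among 7565 genes with a mean of at least 3. For Lmo1 they were Smagp (r = 0.94, and 0.89 after centring), C86187 (0.94 and 0.90) and Tcl1b3 (0.93 and 0.87). For Fbxw4 they were Tcl1b3 (0.91 and 0.85), Ninj1 (0.91 and 0.85) and Sephs2 (0.90 and 0.83). For Gm17018 they included Gm20490 (0.90 and 0.80) and Ninj1 (0.89 and 0.83), and for Ptov1 Ciao2b (0.89 and 0.76) and Gm43552 (0.85 and 0.70).

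Tcl1b3 belongs to the Tcl1 family, whose members are abundant in oocytes and early embryos, and it was among the nearest genes of both Lmo1 and Fbxw4. Serinc1 had weaker partners, 2900097C17Rik (r = 0.75, and 0.57 after centring), Paip2 (0.73 and 0.46) and Rpl30 (0.72 and 0.32).

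Apart from the overlapping pair, the tested genes within 100000 bases of a member had an r of at most 0.73 with it. Hsf2, which ends 2639 bases from Serinc1 and encodes a heat shock factor, had an r of 0.22 with it. Fbxw4 has 7 such neighbours. Apart from Gm17018, its r was highest with Npm3, a nucleoplasmin family chaperone 87422 bases away (0.67), and it was -0.01 with Btrc, another F-box and WD repeat gene on the same chromosome arm. Ptov1 has 13 neighbours, of which Nup62, a nuclear pore gene 32255 bases away, had the highest r (0.73), and Med25, whose product resembles that of Ptov1 and which lies 6977 bases away, had an r of 0.46. The tested neighbours of Lmo1, Gm45024 at 33094 bases and Ric3 at 55241 bases, had an r of 0.08 and 0.18. Between the litters of maternal-null females and Dppa2/4+/+ males, Il4i1, a neighbour of Ptov1 close to the floor, rose by 0.67 (adjusted p = 0.0234).

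Relatives of the 5 genes were read from lists of families and partners. In the same litter comparison 4 of 14 tested genes of the serine list were lower in litter 2 and none was higher, where 11.7% of all genes were lower, and the median difference was -0.69 against -0.06 over all genes. They were Phgdh (-2.96, adjusted p = 0.00265) and Psat1 (-2.36, 0.000118), which encode enzymes of serine synthesis, Kdsr (-1.42, 0.0251) of sphingolipid synthesis and Ptdss2 (-1.19, 0.0221), a phosphatidylserine synthase. No other serine incorporator passed.

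The other lists had 3 of 12, 2 of 11 and 1 of 5 tested genes called, near the 16.7% of all genes. Of 12 tested genes of the SCF list, 2 were higher and 1 was lower in litter 2, with a median difference of 0.03. The ligase scaffold Cul1 (1.18, adjusted p = 9.73e-05) and the adaptor Skp1a (1.67, 1.11e-05) were higher and Fbxw2 (-1.77, 5.48e-06) was lower. Of 11 tested partners of LMO proteins, Ssbp2 (2.67, 0.000819) was higher and Gata1 (-1.79, 0.01) was lower, with a median of 0.02, and of 5 relatives and partners of PTOV1, Rack1 (-1.55, 0.0345) was lower, with a median of -0.26. In the cross with Dppa2/4+/- males, Cul1 differed between litters by -1.24 (adjusted p = 0.00167) and Fbxw2 by 1.24 (0.00855). These were 2 of the 42 tested genes of the 4 lists, near the 4.94% of all genes, and no other passed there. None of the tested genes of the lists passed between Dppa2/4-/- and Dppa2/4+/- littermates, between the 2 kinds of sire, between Dppa2/4-/- embryos and the wild-type-sired Dppa2/4+/- embryos, or between the litters of Dppa2/4+/+ parents. Over the 42 tested genes of the 4 lists, 2, 2, 9 and 6 had an unadjusted p under 0.05 in these comparisons, beside 4.81%, 4.27%, 11.3% and 14.8% of all genes.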

How the data were processed

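Two-cell embryos were sequenced singly. The authors made Smart-seq2 and Nextera XT libraries, trimmed reads with Trim Galore 0.6.5 (cutadapt 2.3), mapped them to GRCm38 with HISAT2 2.1.0, dropped reads with a MAPQ under 20 and used SeqMonk to count over mRNA probes without strand. The deposited values are log2 RPM in which a gene with 0 reads holds the value of 0.9 read. This step returns whole reads for 99.9997% of values, to within 0.05 read.

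The members and lists were chosen with earlier results of these data known. Values under the common floor of 1.86 were raised to it, and genes with a mean deposited log2 RPM of at least 0 (16412) entered limma 3.58.1 (R 4.3.3, lmFit and eBayes with trend, Benjamini-Hochberg, threshold 0.05). Groups were compared with the 4 group means. Littermates and litters were compared in a model with groups and litters within crosses. The paper does not name its own test. Named genes were the 5 members, Dppa2, Dppa4, the 3 genes most alike in level to each, genes within 100000 bases, and called genes or family members of 4 lists. Some genes that this rule names are not reported here. Exonic bases come from GENCODE. No 2 columns were identical. Depth was 247667 to 3163026 reads, and counts cover counting error only, since reads carry no molecular identifiers. Nothing used here says that embryos of a litter are more than siblings, so p-values measure the spread among embryos. Alternatives were other floors, pseudocounts, filters, scaling, weights, voom, blocks and left-out embryos or litters. The interaction of genotype and litter, leaving out Dppa2/4+/+ embryo 10 or each Dppa2/4+/- embryo of Dppa2/4+/+ sires, and leaving out embryos that stood apart from group means, were chosen after seeing the data. Figures were drawn with matplotlib 3.10.9.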

Additional observations from a re-analysis of the deposited data

Results flagged for a closer look

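Within groups and litters of 4 to 10 embryos, 40 sets of values of the 5 genes were examined for an embryo far from the others, and 3 were found. Chance marks about 1 set in 20. Serinc1 in the tenth Dppa2/4-/- embryo was at 3.68 with 7 reads, and its gap to the next embryo was 0.527 of the range of 10 embryos. Serinc1 in the third Dppa2/4+/- embryo of Dppa2/4+/+ sires was at 4.40 with 30 reads, the lowest of the 7 embryos of litter 1, with a gap of 0.654 of their range. Fbxw4 in Dppa2/4+/+ embryo 10 was at the floor of 1.86 with 0 reads, the lowest of 10 embryos of litter 1, with a gap of 0.481 of their range. Without that embryo the litter difference of Dppa2/4+/+ embryos was 0.10 for Fbxw4 in place of 0.36.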

How the results depend on the processing

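Between the litters of maternal-null females and wild-type males, Lmo1 passed in 6 of 6 alternative settings and Serinc1 and Fbxw4 in 5 of 6, each lost with voom. Gm17018 passed in 4 of 6 and was also lost with deposited values of genes without reads (adjusted p = 0.0655), and Ptov1 passed with centred embryos and with sample weights. The number of genes called ran from 2151 to 2847 when each of the 15 embryos was left out. Depth limits the low levels, since 1 read is worth most in the shallowest embryo.

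Between the kinds of sire, 2 genes were called, against 0 with deposited values, log2(RPM + 1), voom or litter as a random effect, 20 with sample weights and 0 to 89 when embryos or litters were left out (89 without litter 1 of the heterozygous sires, which leaves 1 embryo assumed to vary like the other groups, and 45 without litter 2 of the wild-type sires). Leaving out embryos or litters moved the differences to between -2.33 and 0.47 for Serinc1, -2.64 and 0.83 for Fbxw4, -2.64 and 0.73 for Gm17018, -3.07 and 1.04 for Lmo1 and -2.49 and 0.37 for Ptov1, the upper ends without litter 2 of the wild-type sires (for Serinc1 without litter 1 of the heterozygous sires). With centred embryos they were 0.0002 for Fbxw4 and 0.021 for Gm17018.

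Between Dppa2/4-/- and wild-type-sired embryos, 4 genes were called, against 2 with deposited values, centred embryos, voom or litter as a random effect, 8 with log2(RPM + 1), and 2 to 2078 without a litter (2078 without litter 1 and 2 without litter 2 of the wild-type sires, 157 and 30 without litters 1 and 2 of the heterozygous sires). Without a litter the differences ran from -0.37 to 1.40 for Serinc1, -1.44 to 0.51 for Fbxw4, -1.23 to 0.48 for Gm17018, -1.81 to 0.55 for Lmo1 and -1.57 to -0.10 for Ptov1.

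Between littermates, 3 genes were called, 34 with sample weights and 4 to 11 without a Dppa2/4+/- embryo (11 without the fifth). Leaving these out gave -0.15 to 0.82 for Fbxw4, -0.33 to 0.77 for Gm17018, -0.15 to 0.87 for Lmo1 and -0.44 to 0.49 for Ptov1, the lower ends without the fifth. Ptov1 was at -0.14 with centred embryos and -0.17 with voom.

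Between litters of Dppa2/4+/+ parents, 422 genes were called, 869 with voom and 252 to 976 without an embryo (252 without embryo 11, 828 without 13 and 976 without 14). Serinc1 was at 0.085 with centred embryos, 0.083 with sample weights and -0.33 to 0.21 without an embryo, Fbxw4 at -0.089 to 1.27, Gm17018 at 0.024 to 1.13, Lmo1 at 0.35 to 1.19 and Ptov1 at -0.061 to 0.58. Ptov1 was at 1.39 with deposited values, 1.197 with log2(RPM + 1) and 1.58 with voom. In the cross with heterozygous sires, 810 genes were called, 1484 with sample weights and 290 to 834 without an embryo (290 without the fifth Dppa2/4+/- embryo and 451 without the second Dppa2/4-/- embryo), and Serinc1 ran from -0.40 to 0.68. The causes of these changes were not tested.

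The mating number of the labels numbers the litters within a cross, and nothing used here says that it pairs animals across crosses. As a replicate block it called 8 genes between Dppa2/4-/- and wild-type-sired embryos and 2 between the kinds of sire. Without the replicate block of litter, 2 genes were called between littermates and the differences were -0.33 for Fbxw4, -0.25 for Gm17018, -0.49 for Lmo1 and -0.47 for Ptov1. No member gained or lost a call with either. Centring each embryo moved no group mean of the 5 genes by as much as its SD. Of the 15 likenesses, 7 were lower after centring on litter and group by at least 0.1.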
